A study of Mus musculus with 2 samples.

Results

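The genes described here are Slc2a2, which encodes the glucose transporter GLUT2, and 9 partners in glucose release by hepatocytes and its insulin-regulated control. They were chosen by gene symbol, as the rows of the deposited value table that the platform annotation names Slc2a2, Slc37a4, G6pc, Pck1, Pck2, Fbp1, Pcx, Ppp1r3b, Foxo1 or Ppargc1a. All 10 were found, with 1 probe set each, among 15644 named genes. One group of primary hepatocytes was exposed for 12 h to pregnenolone 16α-carbonitrile (PCN) at 10 µmol/l, and the control cells received the solvent dimethyl sulfoxide (DMSO) for the same time. Both groups were cells of a male C57BL/6 mouse aged 9 weeks that had been in culture for 24 h before the treatment. RNA of 3 samples was pooled for each group and hybridised to 1 one-colour Affymetrix array, so each group has a single array, there are no replicates, and no difference could be tested or set against a spread between cultures. "Higher" and "lower" below compare these 2 arrays.

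PCN, a steroid made for research, is a rodent ligand of the pregnane X receptor (PXR), a nuclear receptor, and the comparison asks what it changes in the hepatocyte transcriptome. Hepatocytes make glucose from lactate, pyruvate, amino acids and glycerol, and release it also from glycogen. Pyruvate carboxylase (Pcx) and the phosphoenolpyruvate carboxykinases (Pck1 in the cytosol, Pck2 in mitochondria) carry pyruvate to phosphoenolpyruvate, and fructose-1,6-bisphosphatase (Fbp1) opens the way to glucose 6-phosphate. The carrier encoded by Slc37a4 moves glucose 6-phosphate into the endoplasmic reticulum, where the catalytic subunit encoded by G6pc frees the glucose, and GLUT2 is the main route by which glucose crosses the plasma membrane of rodent hepatocytes. Ppp1r3b encodes a subunit that brings protein phosphatase 1 to liver glycogen, and FOXO1 and PGC-1α (Foxo1, Ppargc1a) are a transcription factor and a coactivator that raise gluconeogenic genes in fasting. Insulin keeps FOXO1 out of the nucleus.

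The regions before the starts of these genes are shown because the genes lie on a shared route and 5 of them were lower together with PCN. The RefSeq table of assembly GRCm38.p6 held 12 windows for 9 of the 10 genes, 3 of them for Slc37a4 and 2 for Pcx. It held none for Ppp1r3b. The 250 bases before the listed start are printed 5′ to 3′ on the gene's strand for Slc2a2, for the carrier Slc37a4 and Fbp1, which were also lower, and for G6pc and Pck1, the classical hormone-controlled genes of the route, which were not measured. Slc2a2 lies at chr3:28697653-28697902 on the plus strand. The Slc37a4 window is that of its first listed start, at chr9:44396696-44396945 on the plus strand. The Fbp1 window, at chr13:62888283-62888532 on the minus strand, lies before the table's listed start, which is not the outermost end annotated for the gene. G6pc lies at chr11:101367466-101367715 and Pck1 at chr2:173152823-173153072, both on the plus strand. Capitals mark matches, on either strand, to the 10 motifs listed after the sequences.
Slc2a2: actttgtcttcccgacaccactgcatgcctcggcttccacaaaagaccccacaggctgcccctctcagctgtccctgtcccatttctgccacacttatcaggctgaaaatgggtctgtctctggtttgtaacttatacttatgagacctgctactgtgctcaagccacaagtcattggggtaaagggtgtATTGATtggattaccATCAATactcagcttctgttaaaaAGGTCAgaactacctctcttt
Slc37a4: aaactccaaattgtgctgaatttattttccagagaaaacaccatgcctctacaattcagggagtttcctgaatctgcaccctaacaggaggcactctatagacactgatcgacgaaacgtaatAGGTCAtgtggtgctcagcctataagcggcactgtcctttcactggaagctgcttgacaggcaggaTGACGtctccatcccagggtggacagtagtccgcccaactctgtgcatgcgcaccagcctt
Fbp1: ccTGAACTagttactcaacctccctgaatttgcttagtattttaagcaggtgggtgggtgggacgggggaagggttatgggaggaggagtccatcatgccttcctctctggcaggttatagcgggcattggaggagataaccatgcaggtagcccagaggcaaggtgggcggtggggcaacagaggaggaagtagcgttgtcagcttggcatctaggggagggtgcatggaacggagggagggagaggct
G6pc: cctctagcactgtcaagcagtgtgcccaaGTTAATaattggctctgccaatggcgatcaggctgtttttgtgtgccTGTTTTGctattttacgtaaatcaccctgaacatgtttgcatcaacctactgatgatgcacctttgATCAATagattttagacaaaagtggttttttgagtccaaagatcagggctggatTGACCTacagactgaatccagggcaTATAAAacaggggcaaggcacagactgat
Pck1: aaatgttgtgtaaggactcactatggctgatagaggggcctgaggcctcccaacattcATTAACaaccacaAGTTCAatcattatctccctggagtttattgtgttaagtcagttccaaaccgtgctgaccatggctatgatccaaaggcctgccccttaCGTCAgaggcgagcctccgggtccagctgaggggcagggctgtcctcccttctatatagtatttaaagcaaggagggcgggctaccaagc

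The motifs were the forkhead insulin-response core TGTTTTG, the forkhead core TGTTTAC, the hexamer GTTAAT, the ONECUT core ATCAAT, the cAMP-response pentamer TGACG, the E-box CACGTG, the nuclear receptor hexamers AGGTCA and AGTTCA, the C/EBP core TTGCNNAA and the TATA box TATAAA, searched on both strands. None of these motifs contains another. The Slc2a2 window held ATCAAT in both orientations, 45 and 60 bases before the start (counted to the first base of the match), and 1 AGGTCA 21 bases before it. Of all 32851 windows in the table, 6.72% held ATCAAT and 14.0% held AGGTCA. The Slc37a4 window held AGGTCA at 127 and TGACG at 61 bases before its start, and 17.8% of all windows held TGACG. Fbp1 held only AGTTCA, at 248 bases, a hexamer found in 11.8% of windows.

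The G6pc window held 5 matches, namely GTTAAT at 221, TGTTTTG at 174, ATCAAT at 108, AGGTCA at 54 and TATAAA at 29 bases before the start. Pck1 held GTTAAT at 192, AGTTCA at 179 and TGACG at 90 bases. Over all windows, GTTAAT occurred in 6.43%, TGTTTTG in 5.56% and TATAAA in 12.4%. No motif was common to the 3 printed windows of genes that were lower. TGTTTAC and TTGCNNAA had no match in any of the 12 windows, against 3.17% and 9.56% of all windows, and CACGTG (6.02% of all) matched only at Pcx. A match is a stretch of letters and not a measured binding site.

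The values are GCRMA intensities, which are background-corrected, scaled between arrays and summarised per probe set. A gene with an intensity under 32 (5 on the log2 scale) in both arrays is called not measured. This floor left 6449 measured named genes, 6229 of them at or above it in both arrays. Bacterial and phage control probe sets, added from outside, differed between the arrays by -0.03 ± 0.10 on the log2 scale (SD over 40 probe sets) and ranged from -0.33 to 0.16, a spread that leaves out any difference between cultures. The median log2 difference of all measured genes was 0.03. Its 5th percentile was -0.35 and its 95th was 0.33, so genes on both sides lay outside the control range. The known PXR target Cyp3a11, a drug-metabolising cytochrome P450, had an intensity of 15919 with PCN and 8519 with DMSO. Intensities of different probe sets are not compared with each other, since each set responds to its transcript in its own way.

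Of the 10 glucose output genes, 6 were measured, all of them in both arrays. Of these, 5 (Slc2a2, Slc37a4, Ppp1r3b, Fbp1 and Pcx) were lower with PCN, where 42.4% of all measured genes were lower, and Foxo1 had the same intensity in both arrays to within 1%. G6pc, Pck1, Pck2 and Ppargc1a were not measured. The median log2 difference of the 6 was -0.53, and without Slc2a2 it was -0.49. Lower by 1.5-fold or more were 2 of the 6, Slc2a2 and Slc37a4, whereas 1.3% of all measured genes were lower by that much. Among the 1086 genes with a mean intensity of 1000 or more the share was 0.552%. Slc2a2 and Slc37a4 lay under 1000 in both arrays and so are not among those brighter genes. None was higher by 1.5-fold, against 0.636% of all measured genes. Only Slc2a2 was lower by 2-fold or more, a size reached downwards by 0.233% of measured genes. The 10 genes were chosen with earlier results of these data known. Their counts and median beside those of all genes are therefore a description and not a test of the group.

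**Figure D1:**
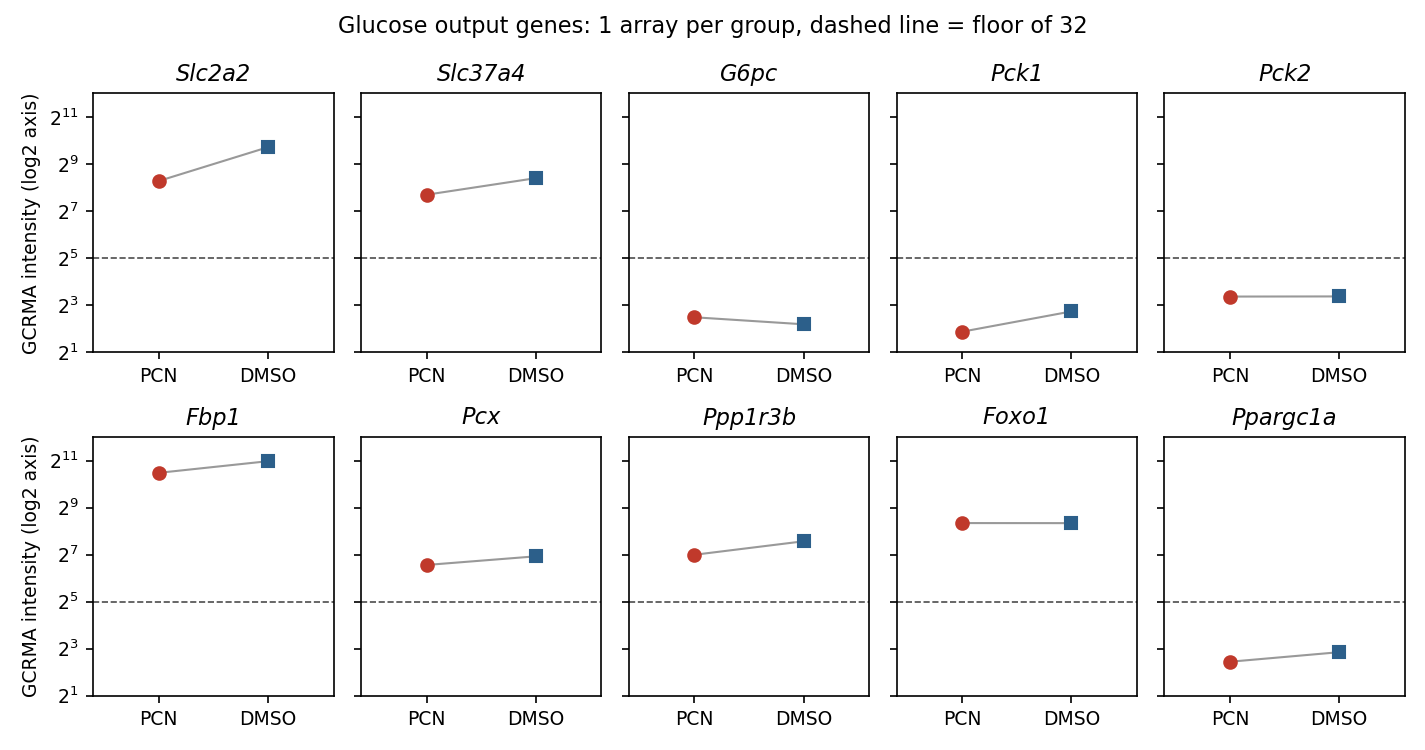
GCRMA intensity (vertical log2 axis) of the 10 glucose output genes in the PCN array (red circles, left) and the DMSO array (blue squares, right), 1 array per group, with the floor of 32 as a dashed line. Slc2a2 has the steepest line, with 310.7 for PCN and 841.7 for DMSO, Foxo1 is level, and G6pc, Pck1, Pck2 and Ppargc1a lie under the floor in both arrays.

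Slc2a2 (probe set 20526_at) had an intensity of 310.7 in the PCN array and 841.7 in the DMSO array. The PCN value was 36.9% of the DMSO value, a 2.71-fold lower level and a log2 difference of -1.44. Both values lay well above the floor. Among the 6229 genes measured in both arrays, ordered from the lowest log2 difference up, Slc2a2 ranked 2. Its difference was far outside the range of the control probe sets. In a bulk sample, a smaller number of cells that express a gene and less RNA per cell cannot be told apart.

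The gene ahead of Slc2a2 in that order was Akr1c19, an aldo-keto reductase, with 112.5 with PCN and 311.7 with DMSO. The neighbours named here leave out uncharacterised gene models, which the rank of Slc2a2 does not. In that reduced order, Baat, the bile acid conjugating enzyme, came after Slc2a2, with 35.1 with PCN and 81.5 with DMSO, 2.32-fold lower. Ttc36, Osbpl3, an oxysterol-binding protein family member, and Mbl1, a mannose-binding lectin, followed at 2.17-fold, 2.16-fold and 2.15-fold lower. The step in log2 difference between Slc2a2 at -1.44 and Baat at -1.22 was larger than the steps among these genes that followed.

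**Figure D2:**
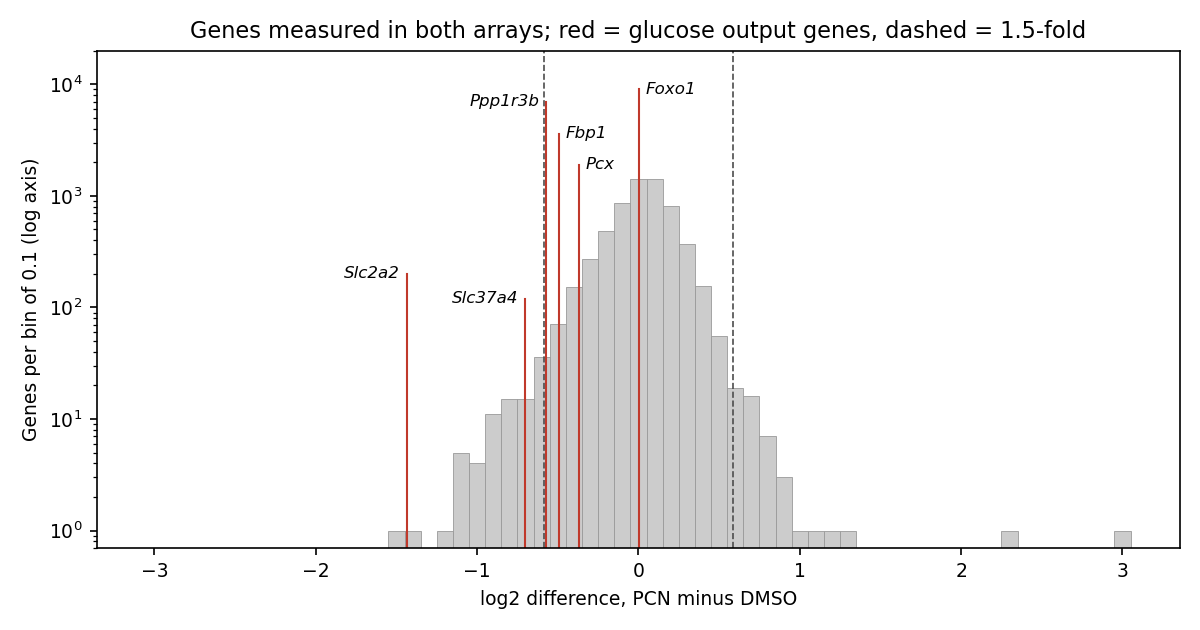
Number of genes (log axis) per bin of log2 difference, PCN minus DMSO, for the 6229 named genes measured in both arrays, with red lines at the 6 measured glucose output genes and dashed lines at 1.5-fold. Slc2a2 stands at -1.44 at the lower end, Slc37a4 at -0.70 beyond the 1.5-fold line, Ppp1r3b at -0.57 beside it, Fbp1 at -0.49 and Pcx at -0.37 in the lower flank and Foxo1 at the centre. Line heights only separate the labels.

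Slc2a2 is 1 of a family of sugar transporters, most of which were not measured here. Of 16 listed transporter genes of the SLC2, SLC5, SLC45 and SLC50 families, 3 were measured and 13 stayed under the floor. Slc2a1, which encodes the widely expressed transporter GLUT1, had 874.7 with PCN and 684.9 with DMSO, 1.28-fold higher. On the log2 scale the Slc2a2 difference lay 1.79 below the Slc2a1 difference. Slc2a8, an intracellular glucose transporter, had 43.5 with PCN and 42.4 with DMSO, and Slc50a1, a sugar transporter also known as SWEET1, had 117.1 with PCN and 125.2 with DMSO. The muscle and fat transporter Slc2a4, with 7.84 with PCN and 8.01 with DMSO, and Slc2a9, a urate transporter, with 8.13 with PCN and 9.01 with DMSO, were among those under the floor.

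Slc37a4 (14385_at), the glucose 6-phosphate carrier, had an intensity of 207.3 with PCN and 337.8 with DMSO. The PCN value was 61.4% of the DMSO value, 1.63-fold lower, with a log2 difference of -0.70. It ranked 46 of 6229 from the lowest, so 0.738% of genes were as low or lower. Its partner on the inner side of the membrane, G6pc (14377_at), was listed at 5.59 with PCN and 4.55 with DMSO, under the floor in both arrays. The second glucose-6-phosphatase subunit gene, G6pc3, which is expressed in many tissues, stood at 23.2 with PCN and 22.3 with DMSO, also under the floor. The 2 arrays therefore show the carrier and not the enzyme it serves.

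Fbp1 (14121_at) had 1425 with PCN and 2007 with DMSO, 1.41-fold lower with a log2 difference of -0.49. It ranked 124 of 6229. Of those 6229 genes, 1.99% were as low or lower. The mean intensity of Fbp1 lay above 1000, where 0.552% of genes were lower by 1.5-fold, a size that Fbp1 did not reach. The muscle-type isoform Fbp2 was lower too, at 57.3 with PCN and 73.9 with DMSO, 1.29-fold. The Fbp1 and Fbp2 transcripts are related in sequence, and these values do not tell whether 1 set also picks up the other transcript.

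Pcx (18563_at) had 94.2 with PCN and 121.5 with DMSO, 1.29-fold lower, with a log2 difference of -0.37 that lay just outside the control range. It ranked 276 of 6229 from the lowest, so 4.43% of genes were as low or lower. The array carries 4 further control probe sets for murine pyruvate carboxylase, placed along the transcript, which the per-gene annotation does not name. All 4 were lower with PCN. The one nearest the 3′ end had 340.4 with PCN and 444.9 with DMSO, 1.31-fold lower. The 2 middle sets had 58.9 with PCN and 74.0 with DMSO, 1.26-fold lower, and 88.7 with PCN and 143.1 with DMSO, 1.61-fold lower. The 5′ set had 44.2 with PCN and 53.3 with DMSO, 1.21-fold lower. On the log2 scale the 5′ set (-0.270) and the 1.26-fold middle set (-0.329) lay inside the control range, whose lowest value was -0.333. The 3′ set (-0.386) and the 1.61-fold middle set (-0.689) lay outside it. These sets read the same RNA on the same 2 arrays and may share probes with the per-gene set, so they are repeat readings and not replicates.

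**Figure D3:**
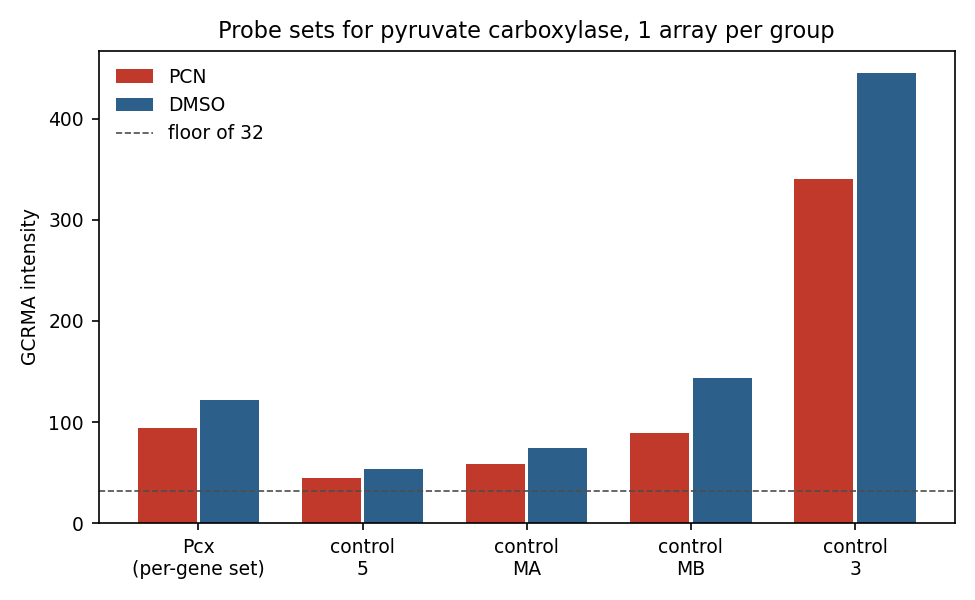
GCRMA intensity of 5 probe sets for pyruvate carboxylase in the PCN array (red, left bar) and the DMSO array (blue, right bar), 1 array per group, with the floor of 32 as a dashed line. The per-gene set and the control sets of the 5′, middle (MA, MB) and 3′ parts are each lower with PCN, from 1.21-fold at the 5′ set to 1.61-fold at the MB set.

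The same kind of control sets exists for other transcripts. Ratios of their 3′ to 5′ sets are given only to compare the 2 arrays, since each set responds in its own way. The ratio was 7.70 with PCN and 8.34 with DMSO for pyruvate carboxylase, and 3.69 with PCN and 3.58 with DMSO for the transferrin receptor. It was 1.51 with PCN and 1.51 with DMSO for β-actin, and 0.978 with PCN and 0.985 with DMSO for Gapdh. Gapdh encodes a glycolytic enzyme that also works in gluconeogenesis, and its 3 control sets lay between 17295 and 18915 with PCN and between 17300 and 19311 with DMSO. The 18S ribosomal RNA sets, near or under the floor, had 20.7, 31.1 and 55.2 with PCN, against 27.6, 49.5 and 69.6 with DMSO. The part of the ribosomal RNA difference in the gene values was not tested.

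The gene that commits oxaloacetate to glucose was not measured in either form. Pck1 (18534_at), the cytosolic carboxykinase, was listed at 3.66 with PCN and 6.64 with DMSO. Pck2 (74551_at), the mitochondrial one, was listed at 10.3 in both arrays. Ppargc1a (19017_at), the coactivator PGC-1α, was listed at 5.44 with PCN and 7.21 with DMSO, and its relative Ppargc1b at 29.3 with PCN and 24.3 with DMSO. These values lie under the floor, as do those of 58.8% of all named genes, and no fold is given for them. Tat, another hepatocyte gene that is induced by glucocorticoids and cAMP, was also under the floor, at 14.9 with PCN and 23.9 with DMSO.

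Ppp1r3b (244416_at), the glycogen-targeting phosphatase subunit, had 127.2 with PCN and 189.4 with DMSO. It was 1.49-fold lower with a log2 difference of -0.57, just short of the 1.5-fold size, and passed it with quantile normalization (-0.60), median centring (-0.61) or removal of an intensity trend (-0.62). It ranked 81 of 6229. The relatives Ppp1r3c, Ppp1r3d and Ppp1r3g, which encode other glycogen-targeting subunits, were all under the floor. Of 25 listed genes of glycogen synthesis and breakdown, 22 were in the table and 14 passed the floor. The 14 divided evenly, 7 higher and 7 lower, none by 1.5-fold, with a median log2 difference of -0.003. Pygl, the liver glycogen phosphorylase, had 1961 with PCN and 1952 with DMSO. Ugp2, which makes UDP-glucose, was 1.23-fold lower, Stbd1, a glycogen-binding protein, 1.22-fold lower, and Pgm2 1.23-fold higher. Gys2, the liver glycogen synthase, was under the floor, at 13.9 with PCN and 22.8 with DMSO.

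Foxo1 (56458_at) had 324.0 with PCN and 323.4 with DMSO, a log2 difference of 0.003, whose sign turned with quantile normalization, median centring and trend removal. Foxo3 and Foxo4 were under the floor. Of 16 listed genes known as FOXO1 targets in liver, 9 were measured, 2 higher and 7 lower, with a median of -0.06. The only one past 1.5-fold was Sesn3, which encodes a sestrin, with 345.5 with PCN and 564.5 with DMSO, 1.63-fold lower. Txnip, an inhibitor of thioredoxin, at 1.14-fold, and Angptl8, a secreted regulator of lipoprotein lipase, at 1.14-fold, were the next lower. Igfbp1, an insulin-repressed binding protein of insulin-like growth factors, had 6220 with PCN and 6487 with DMSO. Irs2 and the insulin receptor gene Insr were under the floor, with 10.1 and 8.06 with PCN and 10.4 and 8.16 with DMSO.

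**Figure D4:**
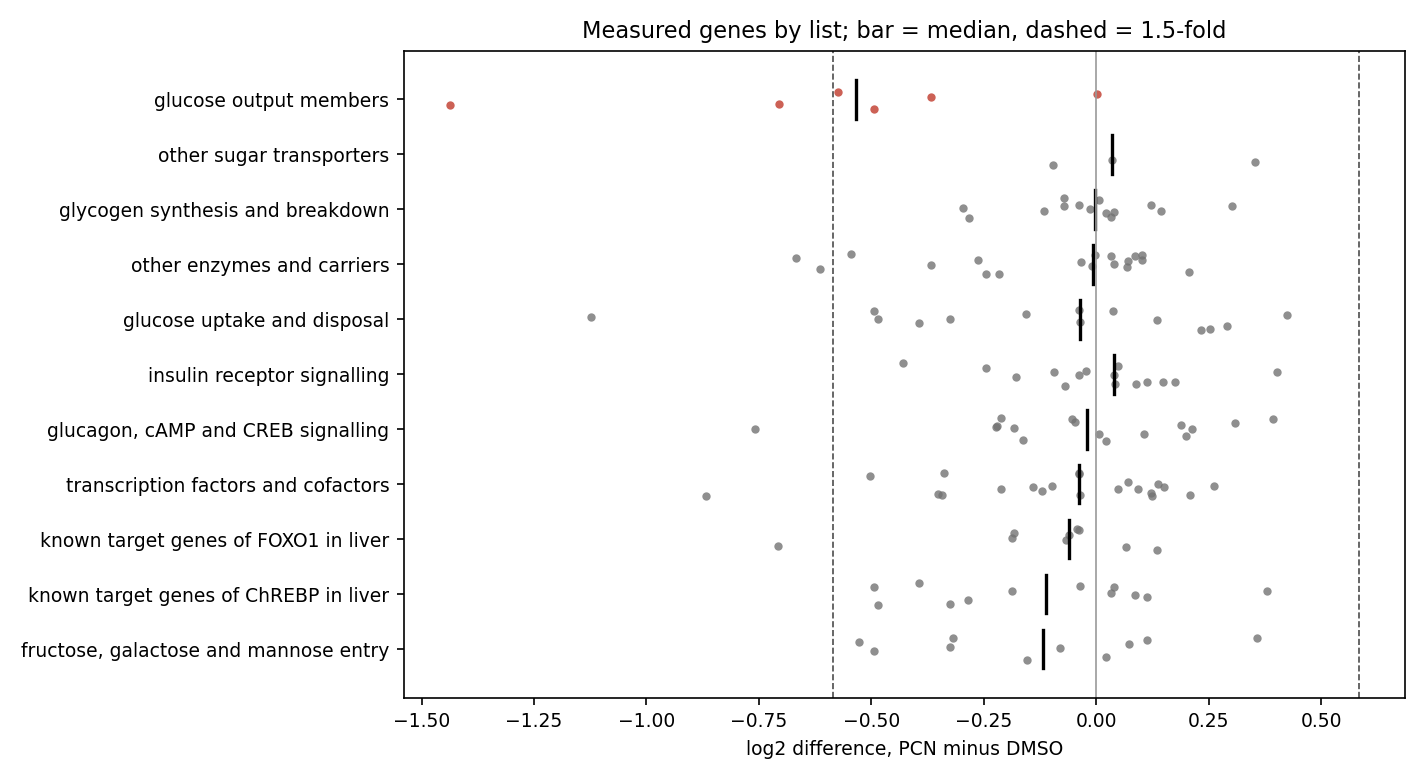
Log2 difference, PCN minus DMSO (horizontal axis), of each measured gene in the glucose output group (red, top row) and in 10 lists of related genes (grey), with the median of each row as a black bar and 1.5-fold as dashed lines. The glucose output row has its median at -0.53, and the medians of the lists lie between -0.12 and 0.04. Points are spread vertically only to separate them, and a gene can stand in several rows. The 10 genes and the lists were chosen with earlier results of these data known.

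The rest of the pathway was described with 10 lists of related genes, which overlap and together hold 223 genes beside the 10. In the table were 184, of which 122 passed the floor, and the other 39 were not analysed here. Of the 122, 57 were higher and 65 lower with PCN, and the median log2 difference was -0.03. Lower genes made up 53.3% of them and 42.4% of all measured genes. At 1.5-fold, 6 were lower, or 4.92% of the measured list genes against 1.3% of all measured genes, and none was higher, against 0.636% of all measured genes. These 6 were Pdk2, Cebpa, Gcgr, Sesn3, Gpt2 and Aqp9. The lists, too, were chosen with earlier results of these data known, so these shares only describe them.

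Among the other enzymes and carriers of glucose production, 18 were measured, 8 higher and 10 lower, with a median of -0.007. Gpt2, the mitochondrial alanine aminotransferase that turns alanine into pyruvate, had 1860 with PCN and 2952 with DMSO, 1.59-fold lower. Aqp9, the channel through which hepatocytes take up glycerol, had 255.4 with PCN and 390.9 with DMSO, 1.53-fold lower. Slc16a7, a monocarboxylate transporter, was 1.46-fold lower, at 47.8 with PCN and 69.7 with DMSO.

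Among enzymes of glucose uptake and disposal, 14 were measured, 6 higher and 8 lower, with a median of -0.04. Pdk2, a kinase that switches off pyruvate dehydrogenase, had 29.1 with PCN, under the floor, and 69.7 with DMSO, and was at least 2.18-fold lower. Tkfc, an enzyme of fructose breakdown, was 1.41-fold lower, at 55.4 with PCN and 78.0 with DMSO. Gckr, a regulatory protein of hepatic sugar metabolism, was 1.40-fold lower, at 322.9 with PCN and 451.8 with DMSO. The 12 measured target genes of the glucose-responsive factor ChREBP had 5 higher and 7 lower, with a median of -0.11 and none past 1.5-fold. Pklr, the liver pyruvate kinase, was 1.31-fold lower, at 309.5 with PCN and 406.4 with DMSO. Of the 10 measured genes of fructose, galactose and mannose entry, 4 stood higher and 6 lower (median -0.12), led by Gmppb at 1.44-fold lower, Tkfc, and Pmm1 at 1.28-fold higher. Gmppb and Pmm1 belong to mannose metabolism.

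In insulin receptor signalling, 15 of the listed genes were measured, 8 higher and 7 lower, with a median of 0.04 and none past 1.5-fold. Pik3r1, a regulatory subunit of phosphoinositide 3-kinase, was 1.35-fold lower, at 240.1 with PCN and 323.3 with DMSO. Phlpp1, a phosphatase that acts on AKT, was 1.32-fold higher, and Pik3cb, a catalytic subunit of the kinase, 1.19-fold lower. In glucagon, cAMP and CREB signalling, 16 genes were measured, 8 higher and 8 lower, with a median of -0.02. Gcgr, the glucagon receptor, had 32.4 with PCN, almost at the floor, and 54.9 with DMSO, 1.69-fold lower. Pde4b, a cAMP phosphodiesterase, was at least 1.31-fold higher, and the coactivator gene Ep300 was 1.24-fold higher.

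Among transcription factors and cofactors of glucose production and of Slc2a2, 21 were measured, 9 higher and 12 lower, with a median of -0.04. Cebpa, which encodes a C/EBP factor of differentiated hepatocytes that is needed for gluconeogenic gene expression in mice, had 219.5 with PCN and 400.5 with DMSO, 1.82-fold lower, the only one past 1.5-fold. Ppara, the lipid-sensing receptor gene, was 1.42-fold lower and Nr5a2, a nuclear receptor gene of the liver, 1.28-fold lower. Hnf4a had 456.9 with PCN and 528.8 with DMSO, 1.16-fold lower, and Foxa2 had 639.9 with PCN and 705.4 with DMSO. Nr1i2, the gene of PXR, had 70.1 with PCN and 71.9 with DMSO.

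The hepatocyte label was checked against its markers. Of 9 hepatocyte markers in the table, 8 were measured and only Tat was not, with Alb at 21383 with PCN and 21685 with DMSO. The marker sums that follow add the measured genes of a list and are compared only between the arrays. The hepatocyte markers summed to 85513 with PCN and 87088 with DMSO, and Alb, Apoa1 and Ttr made up most of this sum. Of the 8, 6 were lower and 2 higher, none by 1.5-fold, where 42.4% of all measured genes were lower. Of 12 markers of Kupffer cells and leukocytes, 3 were measured (Cd68, C1qa and C1qb, with C1qa and C1qb under the floor in 1 array), summing to 1694 with PCN and 1752 with DMSO, while Adgre1, Clec4f and Ptprc were under the floor. Cd68 made up most of this sum, with 1626 with PCN and 1690 with DMSO. Of 10 endothelial markers, 3 were measured (Lyve1, Stab2 and Fcgr2b), summing to 116.7 with PCN and 112.0 with DMSO, with Pecam1 and Cdh5 under the floor. Stellate cells and fibroblasts had 10 markers in the table, of which 2 were measured (Dcn and Acta2), summing to 343.2 with PCN and 387.5 with DMSO, with Col1a1 and Lrat under the floor. Most of this sum was Dcn, at 312.6 with PCN and 351.0 with DMSO, and Acta2 was under the floor in the PCN array. Of 6 bile duct markers in the table, 3 were measured, summing to 732.6 with PCN and 829.8 with DMSO, with Epcam and Krt7 under the floor. Sox9 had 95.2 with PCN and 127.2 with DMSO, 1.34-fold lower, and Cd24a had 414.6 with PCN and 533.4 with DMSO, 1.29-fold lower. Krt19 went the other way, with 222.9 with PCN and 169.2 with DMSO, 1.32-fold higher. Actb, a cytoskeletal gene, had 16525 with PCN and 16471 with DMSO. The part of these marker differences in the glucose output values was not tested.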

How the data were processed

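PCN and DMSO were compared on 1 array each. The file deposited by the authors holds linear-scale intensities, and the submitters' processing notes name GCRMA 2.2.0, which corrects background and scales arrays to each other, so that a change in total RNA per cell would not show. Per the labels' protocols, each array's cRNA was prepared from 5 µg of pooled RNA of 3 samples. The probe set definition and build are not given in the sources used.

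Of 16395 probe sets, 64 were array controls and 687 had no gene name. Differences (PCN minus DMSO) were taken on the log2 scale with pandas 2.3.3 and numpy 2.4.6 under Python 3.11.15. Values under the floor of 32 were raised to it, and such a fold is written "at least". The floor is a choice, since the table has no detection calls. With 1 array per group no test was run, precision is limited by the number of arrays, and treatment and any batch cannot be told apart. The steps were tested on simulated data. Named were the 10 members, the 3 measured genes of each list with the largest difference, the neighbours of Slc2a2 in the order of differences and genes fixed by name. Planned neighbours by level are left out, since they set different probe sets against each other. Ppargc1b, Tat, G6pc3, Slc2a4, Slc2a9, Foxo3, Foxo4, Fbp2, the PPP1R3 relatives and the control probe sets were named after their values were seen. The members, lists and motifs were chosen with earlier results of these data known. Alternatives were floors of 4 and 6 on the log2 scale, values as deposited, quantile normalization, centring on all genes or on controls, subtraction of a loess curve over intensity (statsmodels 0.14.6, span 0.3) and other size thresholds. Figures were drawn with matplotlib 3.10.9.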

Additional observations from a re-analysis of the deposited data

How the results depend on the processing

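All alternatives had been listed beforehand. Every one of the 42 recomputed differences of the 6 measured genes stayed within the control SD of 0.10 of its reported value. Much of this was fixed in advance. All 6 genes lay above 64 in both arrays, so the other floors and the values as deposited could not change them. Either centring moved every gene by the same 0.03. Only quantile normalization and trend removal could move genes by different amounts. The deposited values had already been scaled between the arrays, which limited what a further quantile normalization could move. The Slc2a2 difference ranged from -1.48 to -1.41 on the log2 scale, Slc37a4 from -0.75 to -0.67, Ppp1r3b from -0.62 to -0.54, Fbp1 from -0.53 to -0.46, Pcx from -0.41 to -0.33 and Foxo1, which changed sign in 3 settings, from -0.04 to 0.04. At the 2-fold threshold 1 gene was lower, and at the planned threshold below 1.5-fold 5 were, in place of 2. The count was 3 with quantile normalization, median centring and trend removal, through Ppp1r3b, and 3 with values as deposited, which brings in the dim Pck1. The median of the measured glucose output genes, reported as -0.53, ranged from -0.57 with trend removal to -0.45 with values as deposited, which adds the 4 dim genes. The median of all measured genes moved by at most 0.03 under any scaling. Of 70 list medians, all stayed within the control SD and 10 changed sign, all near 0. Each member had 1 probe set, so choosing among several was not an alternative. No replicate could be left out. No paired analysis was possible because there was 1 array per group. Weak signal limits what can be said of G6pc, Pck1, Pck2 and Ppargc1a.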
